A study of Rattus norvegicus with 27 samples.

Results

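In 12 rats of the inbred Dahl salt-sensitive (SS) strain, in which a salty diet raises blood pressure, 232 of 102810 autosomal windows of 500 bp (0.226%) varied most from rat to rat in CpG methylation of the renal outer medulla. These windows, called variable bins here, were chosen by that spread itself. A rat's level in a bin was its methylated reads as a percentage of all its reads, summed over the CpGs read at least 10 times in all 12 rats. A bin qualified for the choice with 3 or more such CpGs and at least 100 summed reads in every rat, and it was a variable bin if its standard deviation (SD) over the 12 rats was 10 percentage points or more. The levels, the spread and the patterns over these 12 rats are therefore a description of how the bins were chosen, with no test.

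Reduced representation bisulfite sequencing was run on genomic DNA of the renal outer medulla, a salt-handling zone of the kidney, with 1 library per rat in 27 rats and 7 groups. The 12 rats used for the choice came from the MCW colony of SS rats and formed 3 groups of 4. HS_DT rats received GapmeRs (antisense oligonucleotides that direct RNase H to a target RNA) against Dnmt3a and Tet3 into the kidney at 2 mg/kg each and ate a diet with 4% NaCl, for a time the labels give as 7 without a unit. HS_SCR rats received a scrambled GapmeR the same way at 4 mg/kg and ate 4% NaCl for 7 days. PRE_LS rats, on 0.4% NaCl, had the same surgery and gave their tissue at the point where the treatment would otherwise have started. The other 15 rats, with no GapmeR, played no part in the choice. MCW_HS (n = 4) and CRL_HS (n = 4) were put on AIN-76A, a purified diet, with 4% NaCl at 6 weeks of age and kept on it for 14 days, MCW_LS (n = 3) ate AIN-76A with 0.4% NaCl until 8 weeks, and CRL_LS (n = 4) ate the non-purified diet 5L2F with 0.75% NaCl until 8 weeks. Diet type and salt thus differ together between CRL_HS and CRL_LS. The 12 libraries held 174400859 to 257658964 counted reads over CpGs, and the 15 held 35040331 to 95102303, so fewer bins could be measured in the second set.

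In mammals, methyl groups on the cytosines of CpG dinucleotides are written by DNA methyltransferases, Dnmt3a among them, and their removal starts with oxidation by TET enzymes such as Tet3. Rats of an inbred strain are bred to carry nearly the same genome, and loci whose methylation still differs between individuals of such strains are known in rodents. Bisulfite turns an unmethylated cytosine into a base read as thymine, so a C read counts as methylated and a T read as unmethylated, and a thymine present in the genome itself cannot be told apart from an unmethylated cytosine in such counts. In bulk tissue, a different mix of cell types and a different level within a cell type cannot be told apart either.

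The variable bins lay almost entirely in the middle of the methylation scale. Of the 232, 229 had a mean level from 20 to 80%, 3 lay under 20% and 0 over 80%, whereas 53.7% of the qualifying bins lay from 20 to 80%. The median SD was 10.9 points (10.001 to 16.6), against 2.12 points over all qualifying bins, and the median distance between the highest and lowest rat was 36.9 points (25.5 to 55.6). A level under 10% in some rat was reached in 13 bins and one over 90% in 3, but in no bin did 1 rat lie under 10% and another over 90%. The bins just inside the limit had SDs of 10.001 (chr10:65593501-65594000), 10.006 and 10.019 points, and those just outside had 9.99, 9.99 and 9.97 points.

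The variable bins were also more thinly read than other bins, and this bears on how much of their spread is counting error. Their median was 247 summed reads per rat over a median of 6 CpGs, or 45.8 reads per CpG, against 84.8 reads per CpG in the other bins at 20 to 80% (n = 55007). If every read at every CpG were independent, counting error alone would give a median SD of 3.13 points in the variable bins, and their SD was a median of 3.63 times that. CpGs of a bin spanned a median of 103.5 bp, however, so 1 read can count at several of them. With the CpGs of a bin treated as covered by the same reads, the counting SD was a median of 7.42 points. By that measure the SD of the variable bins was a median of 1.54 times the counting SD, against 0.62 in the other bins at 20 to 80%. It was above the counting SD in 231 of 232 bins and above 2 times it in 25, compared with 40 of the 55007 other bins. The variable bins were chosen by a large SD and the other bins lie below that limit, so these ratios and counts partly follow from the choice. Bins picked for the largest SDs also tend to hold large counting errors. The ratios therefore cannot show how much of the spread in the 12 rats exceeds counting error. In 288 of the 1462 CpGs of the variable bins (19.7%), every C and T count in all 12 rats was even, as it was in 12.3% of all common CpGs, and the reason for the even counts was not tested. Counting errors and the intervals below cover counting error only, since reads without molecular identifiers are not independent molecules.

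In most variable bins no single gap between rats dominated the range. The 12 levels of each bin were sorted, and a bin was called graded unless its largest gap between neighbouring rats took 50% or more of the whole range. A bin with more than 2 separate levels can thus be called graded, and counting error can blur levels. The class graded therefore does not show that separate states are absent. By this rule 219 bins (94.4%) were graded, 11 (4.74%) were single-rat bins, with 1 rat beyond the gap, and 2 (0.862%) were 2-state bins, with at least 2 rats on both sides. Among the other bins at 20 to 80%, 97.4% were graded, 2.23% single-rat and 0.358% 2-state. A further 25 variable bins had a largest gap of 40 to 50% of the range, so the counts of the rarer patterns depend on where the limit is set.

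The bin of largest SD, 16.6 points, was the graded bin chr3:116808501-116809000 with 7 CpGs. Its level was 40, 58.0, 66.7 and 32.9% in HS_DT rats 1 to 4, 37.1, 50.5, 47.8 and 43.9% in HS_SCR rats, and 74.4, 32.4, 82.5 and 63.9% in PRE_LS rats. The highest and the lowest rat of the 12 were both PRE_LS rats, and the ranges of the 3 groups overlapped. With 120 reads in PRE_LS 3 and 139 in PRE_LS 2, the 95% Wilson intervals were 74.7 to 88.3% and 25.2 to 40.5%. Of its 7 CpGs, 6 varied by an SD of 17 points or more and moved together, and the remaining one, at position 116808519, was unmethylated apart from a level of 5% in 1 rat. The next largest SD, 15.7 points, belonged to chr10:86178001-86178500, where HS_SCR 3 was at 7.38% (4.17 to 12.7%) and HS_SCR 1 at 63.0% (53.2 to 71.8%). Rats of the same group again stood at the opposite ends. Next came chr4:235945001-235945500 (15.3 points), chr4:220867001-220867500 (15.1 points) and chr18:28404001-28404500 (14.98 points).

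**Figure D1:**
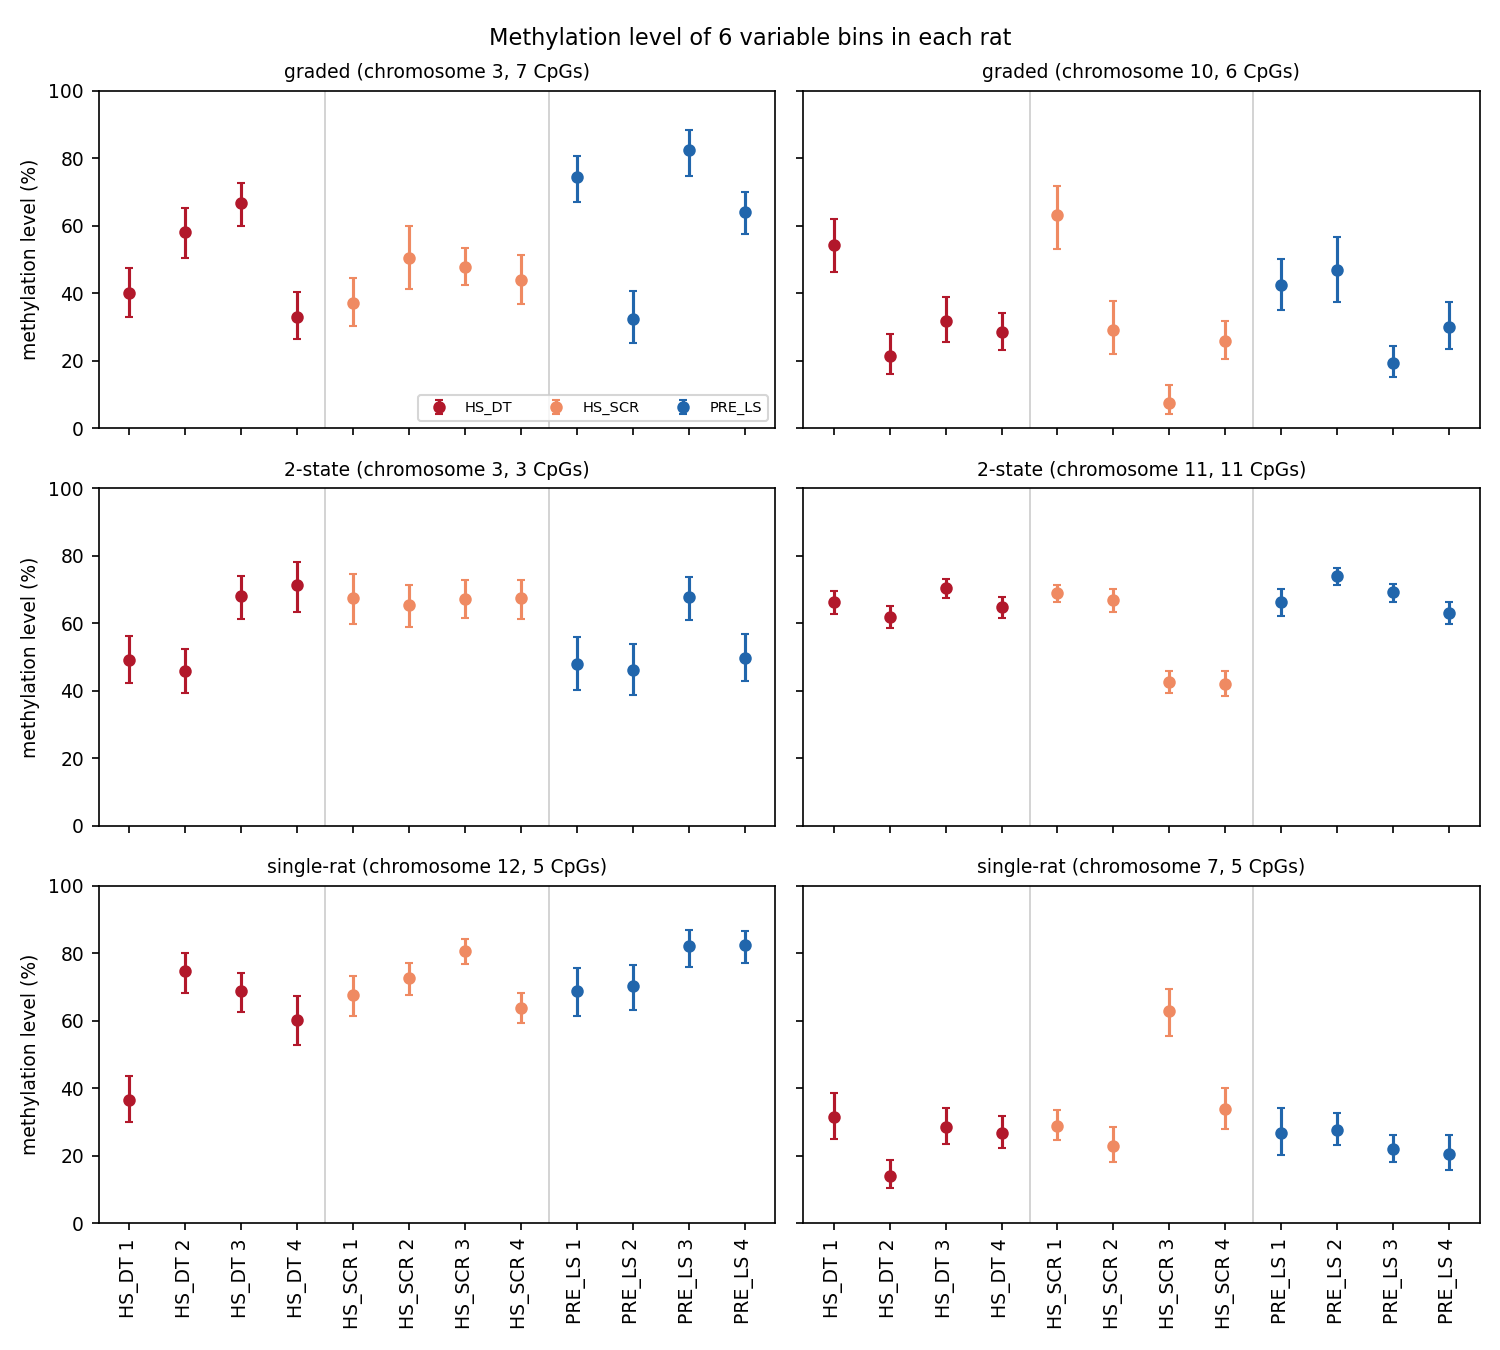
Methylation level (percent, y axis) of 6 variable bins in each of the 12 rats (x axis: HS_DT, HS_SCR, PRE_LS, 4 rats each), with points for levels and bars for 95% Wilson intervals that treat every read at every CpG as independent. The upper bins are graded, with rats of a group spread over the whole range. The middle ones are 2-state, at 46 to 50% or 65 to 71% on chromosome 3 and at 42 to 43% or 62 to 74% on chromosome 11. In the lower ones a single rat stands apart, HS_DT 1 on chromosome 12 and HS_SCR 3 on chromosome 7.

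The 2-state bin chr3:18514501-18515000 owed its pattern to a single CpG. HS_DT 1 and HS_DT 2 were at 49.2 and 45.9% and PRE_LS 1, 2 and 4 at 48.0, 46.2 and 49.7%, while the other 7 rats were at 65.4 to 71.4%. All 4 HS_SCR rats stood on the high side, and HS_DT and PRE_LS had rats on both sides. Its 3 CpGs differed from one another: position 18514709 was at 0% in all 12 rats, with 35 reads or more in each (0 of 35 allows a level of up to 8.57%, taking 3 reads as the limit), and 18514613 lay at 79.5 to 98.0%. Position 18514648 carried the difference, at 47.5 to 55.8% in the 5 rats of the low side and 89.1 to 96.1% in the others, on 70 to 135 reads. Without its most variable CpG the SD of the bin was 3.31 points.

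In the second 2-state bin, chr11:93515001-93515500 with 11 CpGs, HS_SCR 3 and HS_SCR 4 were at 42.5 and 42.1% and the other 10 rats at 61.9 to 73.8%. The difference ran over several CpGs here. At positions 93515257, 93515260 and 93515287, HS_SCR 3 and HS_SCR 4 were at 56.1 to 64.1%, below the 79 to 97.8% of the other rats. The CpG at 93515177 read 63.0% in HS_SCR 3 and 0% in HS_SCR 4, against 89.5 to 100% in the other rats. The remaining HS_SCR rats, 1 and 2, were at 68.8 and 66.9% for the bin, within the range of the other groups.

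Single-rat bins had different outlying rats. At chr12:39725001-39725500 HS_DT 1 was at 36.5% and the other 11 rats at 60.2 to 82.3%, and 4 of its 5 CpGs were lowest in that rat. At chr3:20144501-20145000 HS_SCR 4 was at 66.7% and the others at 25.3 to 46.0%. At chr1:82625501-82626000 PRE_LS 2 was at 20.9% and the others at 42.7 to 64.5%. At chr7:135507001-135507500 HS_SCR 3 was at 62.8% and the others at 14.1 to 33.8%, with 5 CpGs that spanned 18 bp, 4 of which read nearly alike.

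The widest differences between rats at single CpGs gathered near the end of chromosome 4. Of 1188788 common autosomal CpGs, 16 had an SD of 30 points or more, a limit chosen after the values were seen. Of these 16, 12 lay between positions 235873257 and 247400760 of chromosome 4, an interval of 11.5 Mb. A slightly wider window, drawn around these CpGs after their values were seen, held 5681 of the common CpGs (0.478%). The shares of CpGs in it are therefore a description. With a limit of 25 points the share was smaller: 92 CpGs passed, and 16 of them (17.4%) lay in this window. The values that follow are for the limit of 30 points. Variable bins held 4 of the 12. At all 12 CpGs HS_DT 1 and HS_DT 2 lay far from HS_DT 3, HS_DT 4, HS_SCR 1 and HS_SCR 2, which were near 0 or near 100%, and the other rats lay with the second set or in between. The exceptions were positions 242971678 and 242984626, where PRE_LS 2, at 80%, lay beyond HS_DT 1 and HS_DT 2 at 58.8 and 62.8%. These positions had the same levels in every rat.

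At position 246210644, in the variable bin chr4:246210501-246211000, HS_DT 1 and HS_DT 2 were at 99.2 and 96.9%, HS_DT 3 and HS_DT 4 at 6.67 and 0%. HS_SCR rats 1 to 3 were at 0% and HS_SCR 4 at 45.5%. PRE_LS rats 1 to 3 were at 56.6, 52.2 and 65.5% and PRE_LS 4 at 0%. Every rat had 68 to 193 reads there, and the values stood near 0%, near 100% or between 45 and 66%. Position 246210764 of the same bin gave 85.3 and 83.8% in HS_DT 1 and 2, and 0% in HS_DT 3 and 4 and in HS_SCR 1 to 3. The other 6 CpGs of that bin did not share this order, and the bin as a whole was graded with an SD of 10.3 points.

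At position 247400760, in the variable bin chr4:247400501-247401000, HS_DT 1 and HS_DT 2 were at 97.4 and 94.9%, against 0% in HS_DT 3, HS_DT 4, HS_SCR 1 to 3, PRE_LS 2 and PRE_LS 4. HS_SCR 4, PRE_LS 1 and PRE_LS 3 were at 34.4, 45.5 and 39.5%. The direction was turned round at position 235945040, in the variable bin chr4:235945001-235945500, where HS_DT 1 and HS_DT 2 were both at 0% and HS_DT 3 and HS_DT 4 at 100 and 95.8%. It was also turned round at position 239088468, in the variable bin chr4:239088001-239088500, a CpG whose SD was below 30 points. There HS_DT 1 and HS_DT 2 were at 0 and 1.33% and HS_DT 3 and HS_DT 4 at 80.7 and 65.9%. The HS_DT rats were therefore split between the ends at each of these CpGs, and no group of 4 stood apart from the others.

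Of the 12 CpGs, 3 ran in this opposite direction, and the smallest correlation in size with position 246210644 over the 12 rats was 0.81, given as a description. In 4 variable bins the SD fell below 50% of its value when 1 CpG was left out, namely chr3:18514501-18515000 and the chromosome 4 bins at 235945001, 239088001 and 247400501, whose SDs without that CpG were 3.31, 3.27, 4.97 and 1.95 points. In the 15 rats outside the choice, position 246210644 was at 0% in all 13 rats with 10 or more reads, position 247400760 at 0% in all 9, and position 239088468 at 57.1 to 100% in all 15. Whether the DNA sequence at these CpGs differs between the rats was not tested. An additional CpG of the 16, position 35157410 of chromosome 16, had levels like those of position 241284252 of chromosome 4. HS_DT 1 and HS_DT 2 were at 100% at both, and the rat that differed most, PRE_LS 1, was at 22.2% on chromosome 16 and 36.4% on chromosome 4.

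**Figure D2:**
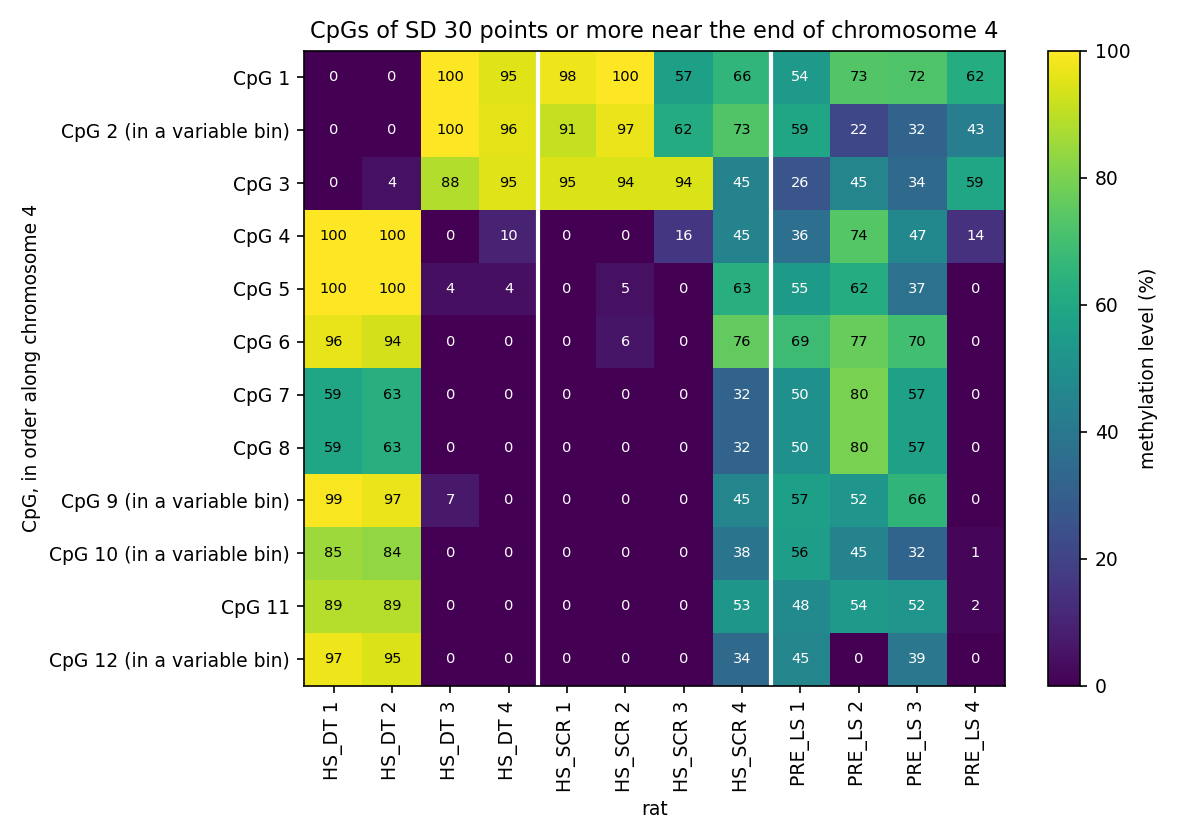
Methylation level (percent, colour and printed value) of the 12 CpGs with an SD of 30 points or more near the end of chromosome 4 (rows, in order of position) in the 12 rats (columns: HS_DT, HS_SCR, PRE_LS). HS_DT 1 and HS_DT 2 differ from HS_DT 3 and HS_DT 4 in every row, in 1 direction in the first 3 rows and in the other direction in the remaining 9. The 4 rows marked as in a variable bin include position 246210644, where the 4 HS_DT rats read 99.2, 96.9, 6.67 and 0%.

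Elsewhere most CpGs of the variable bins varied by themselves. Of the 1462 CpGs in the variable bins, 1184 (81.0%) had an SD of 10 points or more by themselves, and in 42 bins every CpG did. In 128 bins (55.2%) the SD stayed at 10 points or more whichever CpG was left out, and in the others at least 1 CpG took it below that limit. The median correlation between CpGs of a bin over the rats was 0.67, a description of CpGs that share reads. By the pattern rule, 1353 single CpGs (92.5%) were graded, 69 single-rat and 24 2-state, and 16 had the same level in every rat.

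Variable bins seldom lay next to each other. The 232 bins formed 230 loci when bins within 10 kb were joined, and 2 loci held 2 bins. At chr10:104275001-104276000, 2 adjacent bins varied together with a correlation of 0.86. Beside 90 variable bins there was a qualifying bin within 2 kb that was not itself variable, so its SD was below 10 points by the choice. The SD of these neighbours was a median of 3.54 points, and in 26 of the 90 (28.9%) it was 5 points or more, a size near the 90th percentile of all qualifying bins (5.06 points). Their correlation with the variable bin was a median of 0.12 and above 0 in 57 of 90. The neighbour of chr11:93515001-93515500 had an SD of 9.88 points and a correlation of 0.944, and that of chr2:180916001-180916500 had 8.89 points and 0.844. Chromosome 20 had the largest share of its qualifying bins among the variable ones (17 of 3525, 0.482%), and chromosome 8 the smallest (6 of 5224, 0.115%). Among 25323 pairs of variable bins on different chromosomes the median correlation was 0.014, and 41 pairs were above 0.8. The first principal component held 16.5% of the variation of the variable bins, against 11.9% in the other bins at 20 to 80%, and these values are descriptions of bins that share the 12 rats.

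Some variable bins were near-copies of one another. Of the 232, 10 formed 5 pairs whose levels differed by no more than 5 points in any rat. The 4 bins chr5:55012001-55012500, chr5:55714001-55714500, chr18:28404001-28404500 and chr18:50492501-50493000 formed 2 of these pairs, with identical counts in all 12 rats. These 4 were 1.72% of the variable bins, whereas 2818 of the 102810 qualifying bins (2.74%) had the same counts as another bin. The pair chr1:13550001-13550500 and chr19:5824501-5825000 was the most deeply read, with a median of 2244 and 2236 reads. Its SDs of 10.1 points each were the largest relative to counting error under shared reads, 1.94 points. In the first of these, HS_DT rats were at 22.1, 32.4, 34.2 and 42.4%, HS_SCR rats at 41.2, 41.2, 9.76 and 22.1%, and PRE_LS rats at 29.1, 27.0, 20.5 and 38.3%. HS_SCR thus held the lowest rat and a pair of rats near the top. Both bins of this pair also lay within 5 points, in every rat, of chr5:95165001-95165500. That bin had an SD of 9.71 points and so was not a variable bin. Where a pair shares its reads, the pair is 1 observation.

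The rats contributed unequally. HS_SCR 3 was the highest of the 12 in 43 bins and the lowest in 25, and HS_SCR 4 was the lowest in 36 and the highest in 18. No other rat was highest in more than 23 or lowest in more than 27 bins. The root mean square distance from the bin mean was 13.9 points in HS_SCR 3 and 12.4 in HS_SCR 4, against 8.97 to 10.9 in the other rats. In the other bins at 20 to 80% it was 4.19 and 4.11 points in HS_SCR 3 and HS_SCR 4, and 3.24 to 3.78 in the rest, so both rats also lay farthest out there. Averaged over the 232 bins, HS_SCR 4 had the lowest level, 44.7%, and the others 45.4 to 49.3%. Total counts of HS_SCR 3 and HS_SCR 4, 213934084 and 234553496, lay within the range of the other 10. Without HS_SCR 3, 214 bins reached an SD of 10 points.

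**Figure D3:**
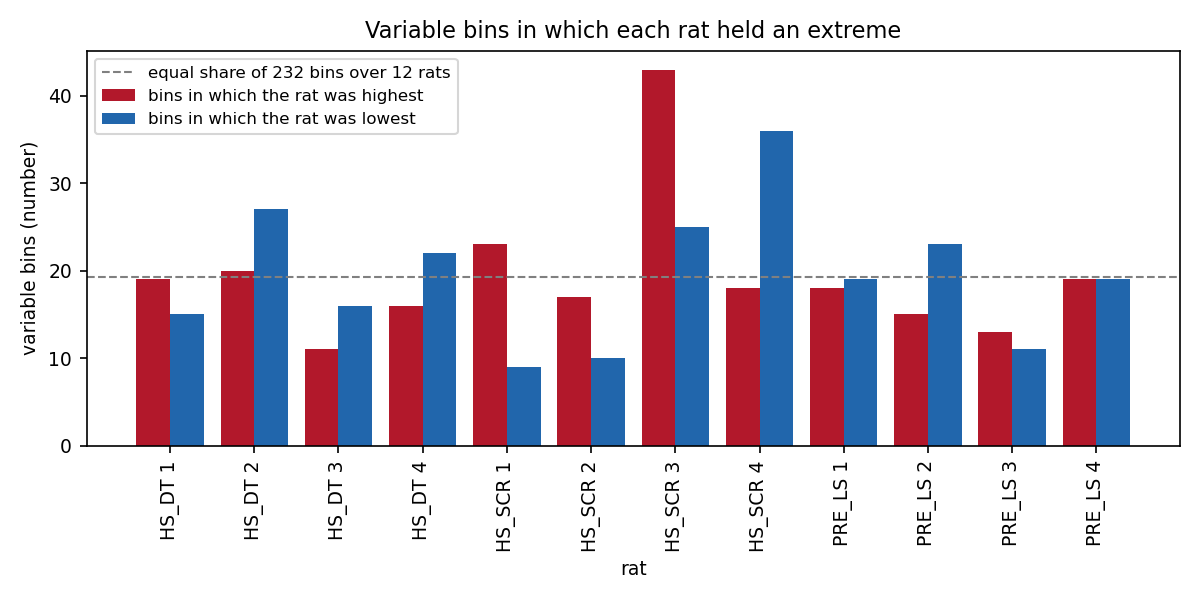
Number of variable bins (y axis) in which each of the 12 rats (x axis) had the highest level (red) or the lowest level (blue); the dashed line is an equal share of the 232 bins. HS_SCR 3 was highest in 43 bins and HS_SCR 4 lowest in 36, and most other bars lie between 9 and 27.

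The median share of the spread held by the labelled groups was near that over all qualifying bins. Means of groups of 4 differ to some extent without any group effect, so these shares are a description. Differences between the means of HS_DT, HS_SCR and PRE_LS held a median of 16.1% of the variation in a variable bin, against 14.5% over all qualifying bins, and over 50% in 14 of 232 bins (6.03%), against 4.06%. In a quasi-binomial model of the counts with dispersion moderated by limma, no variable bin was called at an adjusted p below 0.05 in HS_SCR minus PRE_LS, HS_DT minus HS_SCR or HS_DT minus PRE_LS, nor was any other bin (0.0% called of 96299, 96356 and 96261 tested). At an unadjusted p below 0.05, the variable bins counted 36 of 232 in HS_SCR minus PRE_LS (4.77% of all bins tested), 28 in HS_DT minus HS_SCR (4.41%) and 30 in HS_DT minus PRE_LS (5.21%). An alternative fit, limma on log ratios, called 0 and counted 31, 26 and 26, against 4.80, 4.60 and 5.54% of all bins. The choice used the same 12 rats, HS_SCR and PRE_LS each served in 2 comparisons, and nothing is read from these counts.

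The variable bin with the smallest p for HS_DT minus HS_SCR was chr3:11673501-11674000. HS_DT rats were at 50.8, 54.3, 52.7 and 50.3%, HS_SCR rats at 38.5, 29.2, 25.3 and 27.9%, and PRE_LS rats at 68.2, 32.5, 37.7 and 49.0%. HS_DT lay above HS_SCR with no overlap, and the PRE_LS range overlapped both. The means were 52.0 ± 1.84% in HS_DT and 30.2 ± 5.73% in HS_SCR (SD, n = 4 each), a difference of 21.8 points that was not called (adjusted p = 0.430, quasi-binomial model with limma). In the opposite direction, chr19:68061001-68061500 had means of 29.1 ± 7.15% (HS_DT), 49.7 ± 5.99% (HS_SCR) and 39.2 ± 4.62% (PRE_LS; SD, n = 4 each), with an adjusted p of 1.00 for HS_DT minus HS_SCR in the quasi-binomial model with limma.

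The groups held the largest part of the variation, 77.2%, at chr10:104275501-104276000, the second of the adjacent pair. HS_DT rats were at 50, 38.0, 42.8 and 31.1%, HS_SCR rats at 42.0, 42.1, 33.1 and 40.3%, and PRE_LS rats at 58.3, 57.0, 56.2 and 64.8%. All 8 rats on 4% NaCl lay below all 4 PRE_LS rats. HS_DT averaged 40.4 ± 7.98%, HS_SCR 39.4 ± 4.29% and PRE_LS 59.1 ± 3.88% (SD, n = 4 each). Neither difference from PRE_LS, -18.7 points for HS_DT and -19.7 points for HS_SCR, was called (adjusted p = 0.813 and 0.772, quasi-binomial model with limma). In the adjacent bin chr10:104275001-104275500 the ranges touched: PRE_LS rats were at 43.0 to 63.9%, above all HS_SCR rats (25.8 to 34.5%) but not above HS_DT 1 (43.8%).

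The 15 rats of the other table were not used for the choice, and in them the bins could be measured anew. Of the 232 bins, 17 had 3 or more CpGs with 10 reads in all 15 rats and 100 summed reads in every rat. Their SD over the 15 rats was a median of 9.55 points (0.53 to 15.6). The median was 3.20 points in the 6029 other bins at 20 to 80% that passed the same filter, and 0.73 points over all 25510 bins that did. An SD of 10 points or more recurred in 8 of the 17 (47.1%), against 117 of the 6029 (1.94%). Near-copies are counted separately here. The near-copies chr5:144276501-144277000 and chr7:135507001-135507500 are both among the 8, and those on chromosomes 14 and 17 are both among the 17. Of the 17, 13 lay above 6.95 points, the 90th percentile of the 6029. All 17 were graded in the 15 rats.

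Thin reading was shared by both tables and was measured beside this result. The counting SD under shared reads was a median of 7.69 points in the 17 bins and 6.07 in the 6029. Among the 693 of the 6029 bins whose counting SD lay in the middle 50% of that of the 17 (7.19 to 7.82 points), the median SD over the 15 rats was 4.38 points, and 15 (2.16%) reached 10. The SD was above its counting SD in 12 of the 17 bins and above 2 times it in 1. The ratio of the SD to the counting SD was a median of 1.22 in the 17 bins. In 6028 of the 6029 other bins that ratio was a median of 0.565, with an upper quartile of 0.766.

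The recurrence was seen within each colony. Over the 7 MCW rats alone, 7 of the 17 bins had an SD of 10 points or more, against 123 of the 6029, and over the 8 CRL rats alone 7 did, against 143. The bins counted over the MCW rats include both near-copies on chromosomes 5 and 7. Spread in the 15 rats increased with spread in the 12 across classes of bins, which were not matched for mean level or read depth. Bins with an SD in the 12 rats of 2 to 4 points had a median SD in the 15 rats of 3.60 points, those of 4 to 6 had 5.56, those of 6 to 8 had 6.94, those of 8 to 10 had 7.32, and the variable bins 9.55. Over the 6046 bins at 20 to 80%, variable bins included, the SDs in the 12 and in the 15 rats had a correlation of 0.644. Read depth was not matched there either. The mean level was kept within 10 points between the tables in 15 of the 17 bins.

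**Figure D4:**
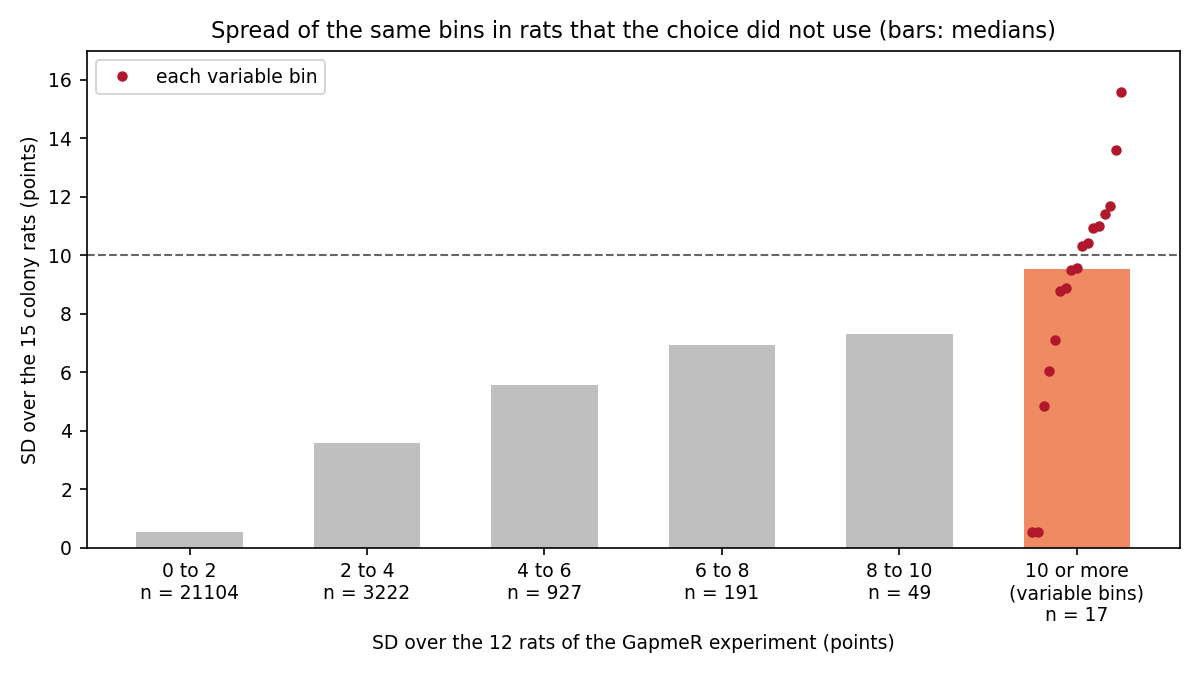
Median SD over the 15 MCW and CRL rats (points, y axis, bars) for bins of any mean level and read depth, grouped by their SD over the 12 rats used for the choice (x axis, with the number of bins). Red points are the 17 variable bins that could be measured in the 15 rats. The bars climb from 0.529 points in the least variable class to 9.55 points in the variable bins, and 8 points lie above the dashed line at 10; the 2 points near 0 are near-copies.

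Of the 17 variable bins, the widest spread in the 15 rats was at chr2:180916001-180916500, whose 22 CpGs made it the variable bin with most CpGs. MCW_HS rats were at 60.6, 64.8, 68.0 and 82.3% and MCW_LS rats at 76.4, 44.9 and 41.9%. CRL_HS rats were at 49.6, 51.4, 75.3 and 68.4% and CRL_LS rats at 33.6, 55.5, 41.3 and 35.4%. Its SD was 15.6 points over these 15 and 10.3 points over the 12 rats of the choice, in which levels were 35.2 to 66.4%. The groups on high and low salt overlapped in both colonies. Next was chr3:17117001-17117500, with an SD of 13.6 points over a range of 14.5 to 56.5%, followed by the near-copies chr5:144276501-144277000 and chr7:135507001-135507500 (11.7 and 11.4 points). This pair was single-rat in the 12 rats, with HS_SCR 3 highest, and graded in the 15, where MCW_HS 4 was lowest at 9.71 and 10.8%. The 2-state bin chr11:93515001-93515500 had an SD of 4.86 points in the 15 rats (63.6 to 79.0%), with none near the 42% of HS_SCR 3 and HS_SCR 4.

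A near-copy pair behaved unlike the rest. The bins chr14:51630501-51631000 and chr17:37985501-37986000 had mean levels of 35.0 and 34.9% in the 12 rats, with HS_SCR 3 lowest at 12.6% and PRE_LS 4 highest at 50.4 and 51.3%. In the 15 rats both were almost unmethylated, at 0.283 and 0.284% on average and at most 1.52%. Each held 9 CpGs within 43 bp. At position 51630614, 2 of 519 reads over the 15 rats were methylated, while the 12 rats ranged from 15.4 to 63.6% there. Across the 25510 bins measured in both tables, means differed by more than 30 points in 10, and 2 of these were this pair. The tables differ in experiment, rats and depth, which cannot be told apart here.

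Dietary salt and colony were compared in the 15 rats for the 40 variable bins that had 3 or more common CpGs and a pooled level of 5 to 95% there. The 17 bins above were chosen by 100 reads in every rat and not by the pooled level, and the near-copies on chromosomes 14 and 17 are among the 17 but not the 40. In the quasi-binomial model with limma, 0 variable bins and 0.0% of all bins were called in MCW_HS minus MCW_LS (28188 tested), CRL_HS minus CRL_LS (28039), MCW_LS minus CRL_LS (27982), MCW_HS minus CRL_HS (28242) and the difference of the salt effects between colonies (28130). At an unadjusted p below 0.05 the variable bins counted 8 of 40 in MCW_HS minus MCW_LS (6.23% of all bins), 7 in CRL_HS minus CRL_LS (5.92%) and 1 in MCW_LS minus CRL_LS (5.62%). They counted 7 in MCW_HS minus CRL_HS (5.95%) and 4 for the difference of salt effects (5.34%). The fit with limma on log ratios called 0 in all 5 and counted 7, 6, 1, 6 and 4, against 5.62, 5.87, 5.28, 6.05 and 4.99% of all bins. Without MCW_LS 3, the quasi-binomial fit of MCW_LS minus CRL_LS called 135 of 27955 bins, of which 0 were variable bins.

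Most of the 40 variable bins had a higher mean on high salt than on low salt in each colony. The mean of MCW_HS was above that of MCW_LS in 30 of 40 bins, with a median difference of 3.90 points, against 54.6% of all 28188 bins and a median of 0.342 points. CRL_HS was above CRL_LS in 30 of 40, with a median of 2.94 points, against 55.5% and 0.370 points. Both differences were positive in 23 bins, about as many as 30 of 40 in each colony gives with no link between them. The share over all bins was not counted. As an average over the 40 bins, MCW_HS rats were at 48.5, 49.2, 50 and 50.9% and MCW_LS rats at 46.3, 43.6 and 48.3%. CRL_HS rats were at 50.8, 48.6, 46.5 and 48.5% and CRL_LS rats at 40.2, 43.9, 46.3 and 46.5%. The groups on 4% NaCl lay above the low-salt groups in both colonies, and in CRL the nearest rats were 46.54 and 46.53%. Over the 19878 bins at 20 to 80%, MCW_HS rats averaged 62.2 to 63.1% and MCW_LS rats 61.8 to 62.0%, and CRL_HS rats 62.0 to 62.9% and CRL_LS rats 61.3 to 62.3%. No test was made over the 40 bins. In the 12 rats, HS_SCR was above PRE_LS in 128 of 232 variable bins (55.2%), against 48.9% of all bins tested.

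**Figure D5:**
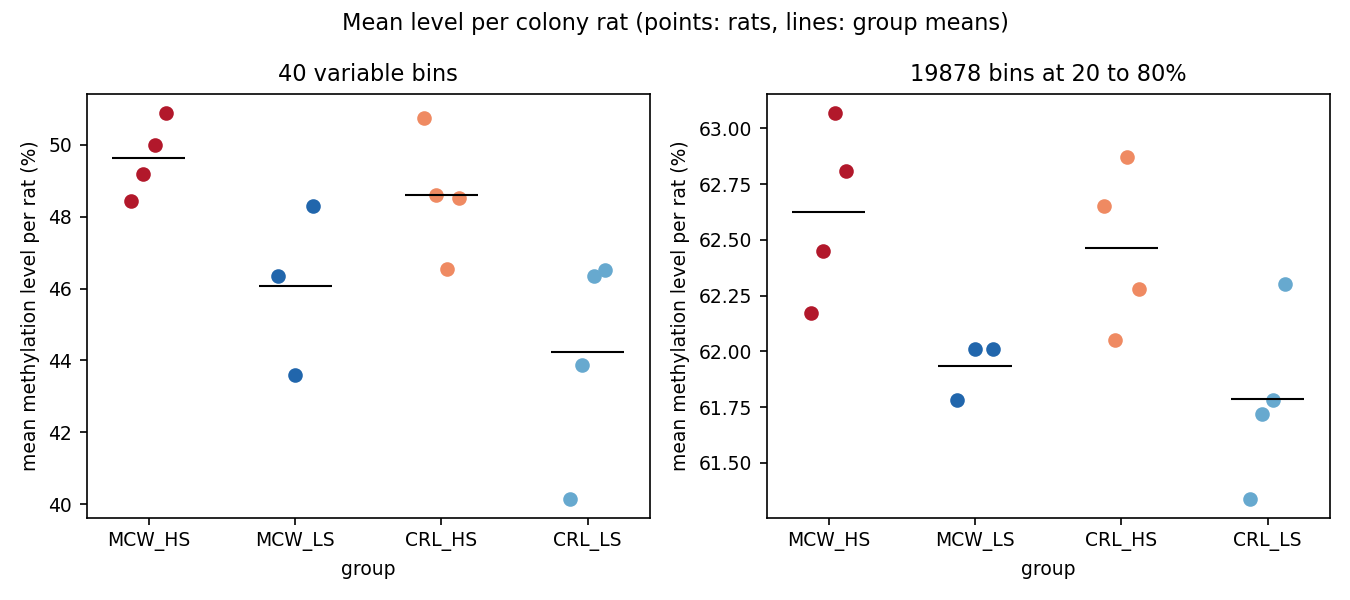
Mean methylation level per rat (percent, y axis, axes cut and on different scales) over the 40 variable bins (left) and over the 19878 bins at 20 to 80% (right) in MCW_HS, MCW_LS, CRL_HS and CRL_LS (x axis); points are rats and lines group means. On the left the high-salt rats lie above the low-salt rats of their colony, from 48.5 to 50.9% against 43.6 to 48.3% in MCW, and touching at 46.5% in CRL. On the right the shifts are under 2 points.

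A single bin led several of these comparisons. At chr12:4100001-4100500, with 5 CpGs, MCW_HS rats were at 32.8, 22.2, 38.4 and 33.3% and MCW_LS rats at 15.9, 20.1 and 22.1%. CRL_HS rats were at 28.9, 28.5, 22.6 and 18.8% and CRL_LS rats at 11.8, 13.5, 9.29 and 14.4%. High salt was above low salt without overlap in both colonies, but in MCW the nearest rats were at 22.16 and 22.06%. Group averages were 31.6 ± 6.81% in MCW_HS (SD, n = 4), 19.4 ± 3.14% in MCW_LS (n = 3), 24.7 ± 4.89% in CRL_HS (n = 4) and 12.2 ± 2.25% in CRL_LS (n = 4). The differences of 12.3 points in MCW and 12.4 points in CRL were not called (adjusted p = 0.716 and 0.626, quasi-binomial model with limma), nor was MCW_LS minus CRL_LS, 7.10 points (adjusted p = 0.713). In the GapmeR experiment HS_DT rats were at 46.0, 34.3, 34.4 and 42.9%, HS_SCR rats at 36.9, 44.3, 51.7 and 10.98%, and PRE_LS rats at 23.2, 22.0, 25.9 and 29.3%. HS_DT lay above PRE_LS, and HS_SCR did so except for HS_SCR 4, the lowest rat of the 12. Reads per rat in the colonies were 88 to 264.

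Other bins singled out by a smallest p had differences between groups of the 15 rats that were likewise not called. At chr11:73078001-73078500 MCW_HS rats were at 68.3, 60.8, 63.7 and 68.4% and MCW_LS rats at 48.0, 46.9 and 36.2%, a difference of 21.6 points (adjusted p = 0.630, quasi-binomial model with limma). CRL_HS and CRL_LS overlapped there, at 49.1 to 61.8% and 44.7 to 60.2%. At chr5:136442501-136443000, on 40 to 120 reads per rat, MCW_HS rats were at 38.9, 32.7, 40.9 and 51.1% and MCW_LS rats at 85.0, 58.3 and 48.8%, while CRL_HS rats were at 68.8, 55.5, 58.9 and 69.4% and CRL_LS rats at 50, 41.7, 50 and 53.1%. The salt difference was -23.1 points in MCW and of the other sign in CRL, and the difference of the salt effects was -37.6 points (adjusted p = 0.816, quasi-binomial model with limma). At chr15:36728001-36728500 MCW_HS averaged 50.8 ± 4.93% and CRL_HS 65.6 ± 5.63% (SD, n = 4 each), a difference of -14.8 points with an adjusted p of 0.663 in the same model. None of these differences passed the adjustment over all bins.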

How the data were processed

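The authors deposited 2 tables of counts, which give the C and T reads per CpG and rat, per the file headers. Trimming was by Trim Galore 0.2.5 and coordinates are of rn5, per the submitters' processing notes. In the sources used here the aligner and the handling of duplicates are not given. No rn5 genome or annotation was used, so bins carry coordinates only, with no genes or sequences. Columns were matched to rats by animal number. The letters RP stand in the labels of 1 MCW_LS and 1 CRL_LS library, and for MCW_LS the column name was followed where the labels differ.

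CpGs read 10 or more times in all rats of a table were summed in 500 bp bins. Groups were compared with a quasi-binomial logistic model on the counts, 1 value per rat, with the dispersion moderated by limma 3.58.1 (squeezeVar) and held at 1 or more, a two-sided F test and Benjamini-Hochberg adjustment over all bins with 3 or more CpGs and a pooled level of 5 to 95%. Bins with an adjusted p below 0.05 were called. The model was tested on simulated counts for HS_SCR minus PRE_LS only, at a single fixed dispersion. That run does not show how well a change in the variable bins would be found. The tables were tested separately. Python 3.11.15 and R 4.3.3 were used.

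The variable bins, lists and limits were chosen with earlier results of these data known. Bins named are the 8 loci of largest SD, the 4 of largest SD in each pattern, those nearest the limit, loci with several bins, the smallest p in each direction per comparison, and the largest and smallest SD in the 15 rats. The chromosome 4 CpGs, the near-copies, the bin pairs shared by their reads and the bins that rest on 1 CpG were added after their values were seen.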

Additional observations from a re-analysis of the deposited data

Results flagged for a closer look

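For the bins named and for the summaries of each rat over all variable bins, 133 groups of 4 values were examined for a rat far from the other 3. There were 13 such values, with near-copies counted separately. Chance alone gives about 1 in 20 groups, or 5%, but the bins named were chosen for their spread, their pattern or a small p, so that share is no measure for them. At chr1:82625501-82626000 HS_DT 4 was at 61.8% and the other HS_DT rats at 49.2 to 50.9%. At chr2:180916001-180916500 HS_DT 2 was at 66.4% and the others at 54.9 to 56.2%. At chr3:17117001-17117500 PRE_LS 4 was at 50.5% and the others at 26.2 to 26.7%. In the 2-state bin chr3:18514501-18515000 HS_SCR 2 was at 65.45%, just under the 67.3 to 67.6% of the others, and PRE_LS 3 was at 67.6%, above 46.2 to 49.7%. At chr3:20144501-20145000 HS_SCR 4 was at 66.7% and the others at 33.7 to 37.4%. At chr10:104275001-104275500 PRE_LS 4 was at 63.9% and the others at 43.0 to 44.9%.

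In the near-copy pair chr14:51630501-51631000 and chr17:37985501-37986000, CRL_HS 4 was at 1.32 and 1.33% and CRL_LS 2 at 0.935 and 0.939%, with the other rats of both groups at 0%. As an average over all variable bins, HS_DT 3 was at 47.9% with the other HS_DT rats at 46.3 to 46.5%, and HS_SCR 4 was at 44.7% with the other HS_SCR rats at 48.9 to 49.3%.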

How the results depend on the processing

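The number of variable bins was 156 to 235 with 20 reads per CpG, bins shifted by 250 bp, unweighted means of CpG levels or copies counted once, and 4 with a limit of 15 points. Leaving out 1 rat gave 214 (without HS_SCR 3) to 269 variable bins, 9 to 15 single-rat, 1 to 5 2-state and 204 to 251 graded bins. Unweighted means gave 5 single-rat bins and 1 2-state bin. With a gap of 40% of the range, 25 bins were single-rat and 13 were 2-state, and with 60%, 2 were single-rat, which follows from the moved limit. The median SD in the 15 rats was 11.04 points with 20 reads per CpG (10 bins), 9.22 to 10.3 without 1 rat and 9.50 to 10.1 otherwise. Counting near-copies once (227 variable bins) was chosen after seeing the data.

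No alternative of the 110 run for the group comparisons called a variable bin, and 1 called any bin (135 bins in MCW_LS minus CRL_LS without MCW_LS replicate 3, against 0 with it). Libraries with the same replicate number did not deviate together (correlations of -0.0155 to 0.0225 among the 12 rats and -0.0434 to 0.0233 among the 15). Libraries with other numbers had correlations of -0.0587 to 0.0591 and -0.0469 to 0.0694. These values cannot show whether the numbers pair the rats in a way that leaves no mark on methylation. With the replicate number as a block, 0 variable bins were called in all 8 comparisons. At an unadjusted p below 0.05 that fit counted 49 in HS_SCR minus PRE_LS, 41 in HS_DT minus HS_SCR and 46 in HS_DT minus PRE_LS, against 4.94, 4.63 and 5.70% of all bins. A block for ranges of animal numbers was not run for CRL_HS minus CRL_LS, where all rats fall in the same range. It was also not run for both colony comparisons, where the groups share no range. MCW_HS and CRL_HS hold no library marked RP. In the 15 rats, 17 of 232 bins had 3 or more CpGs and passed the read minimum, and 57 could be measured with 1 CpG and no read minimum.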
